A study of Arabidopsis thaliana with 42 samples.

Results

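Leaf total RNA of wild-type Arabidopsis thaliana was compared between leaves of day 28 and leaves of day 26 after emergence, a single step of 2 days late in leaf life. The comparison rests on 4 libraries, 2 of day 28 and 2 of day 26, out of the 42 libraries of the study and the 28 that hold total RNA. Each day is represented by 1 library of set 1 and 1 of set 2. The sets are labelled as independent biological replicates, but what was kept apart (plants, growth or extraction) is not told, so a p-value speaks of the spread between libraries, part of which may be technical. All groups are wild-type leaves that the labels separate by age alone, with no treatment named, and the labels give neither growth conditions nor the number of plants per library. The total RNA series runs over 14 ages in steps of 2 days, and its 28 libraries together supplied the estimate of the spread.

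Leaf senescence is the ordered dismantling of a leaf before it dies. Chloroplasts are taken down first: the photosynthetic proteins are degraded, chlorophyll is converted to colourless products, and the released nitrogen, phosphate, sugars and metals are loaded into the phloem and moved to growing organs and seeds. NAC and WRKY transcription factors, ethylene, abscisic acid and jasmonate promote the programme, and cytokinin delays it. The cysteine protease gene SAG12 is the usual marker of advanced natural senescence in this species.

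Values are FPKM per gene (fragments counted per gene, scaled by transcript length and by the mapped fragments of the library), summed over transcript models, and read depth is unknown because the files hold no counts. Changes are given as day 28 minus day 26 on the log2(FPKM + 1) scale with their standard error, which understates changes of genes near or below 1 FPKM. A gene is said to rise or fall where limma gave an adjusted p under 0.05 over the 18239 genes tested. Pairs of values are those of set 1 and then set 2, and the libraries are written D28s1, D28s2, D26s1 and D26s2, by day and set. A named gene described as rising or falling passed also with each of the 4 libraries left out in turn unless the text says otherwise; a day with 1 library left is then assumed to vary like the others. In bulk leaf RNA, fewer cells of a type and less RNA per cell cannot be told apart.

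The sets differed in level on both days for single genes such as SAG12. SAG12 had 1841 and 1255 FPKM in the day 28 libraries, against 481 and 126 FPKM in the day 26 libraries. The day 26 library of set 1 correlated with the day 28 libraries at 0.967 (set 1) and 0.966 (set 2) over the tested genes, and the day 26 library of set 2 at 0.940 and 0.966, against 0.980 between the 2 day 28 libraries and 0.979 between the 2 day 26 libraries. Summed FPKM was 454953 and 460955 on day 28, against 459163 and 468930 on day 26, and the number of genes at 1 FPKM or more was 15792 and 15869, against 15822 and 16128. Nuclear rRNA made up 0.343% and 0.0598% of summed FPKM on day 28, against 0.110% and 0.0434% on day 26, and its part in the results was not tested. Set 1 of day 4 differed from the other 27 libraries, with a summed FPKM of 331479 against 439949 to 484348, and it enters the estimate of the spread. Counts without the 2 libraries of day 4 are therefore given beside the main ones.

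Mesophyll genes were detected on both days, at lower levels on day 28. RBCS1A (a Rubisco small subunit) had 305 and 463 FPKM on day 28, against 646 and 786 FPKM on day 26. LHCB2.1 had 172 and 366 FPKM, against 469 and 728 FPKM. CA1 (a carbonic anhydrase) was far lower, with 6.42 and 16.8 FPKM, against 31.7 and 105 FPKM. Of 3 root markers none passed the filter on low values, and their summed level was at most 0.239 FPKM in the day 28 libraries and at most 0.136 FPKM in the day 26 libraries.

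Between day 26 and day 28 the levels of 1529 genes changed, 8.38% of the genes tested. The level was higher on day 28 for 911 genes (4.99%) and lower for 618 (3.39%), with median changes of 0.95 and -0.91, against -0.02 over all genes tested. The change exceeded 1 on the log2 scale for 412 of the genes that rose and was below -1 for 235 of those that fell. No called gene moved in opposite directions in the sets. In 1512 of the 1529 genes the 2 days did not overlap. Among all genes tested 26% had both day 28 libraries above both day 26 libraries and 28.2% had them below. The called genes were chosen by these same libraries, so their direction and lack of overlap follow largely from the choice. They are no separate support, and the shares over all genes are not a like background. At an unadjusted p under 0.05 the count was 3962.

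The steps just before this one were smaller in number of genes. The step from day 22 to day 24 raised 178 genes (0.976%) and lowered 9 (0.0493%), and that from day 24 to day 26 raised 49 (0.269%) and lowered 3 (0.0164%). The step from day 28 to day 30 raised 1644 genes (9.01%) and lowered 3982 (21.8%). More genes than between day 26 and day 28 were called only from day 4 to day 6 (2026 higher and 58 lower) and from day 28 to day 30. Steps that meet at a day share its libraries, and their counts were not tested against each other. Without the 2 libraries of day 4 the count for day 28 against day 26 was 3677, with 1943 higher and 1734 lower, and all 1529 genes were among them. Leaving out 1 library of the 2 days gave 447 genes without D28s1, 865 without D28s2, 894 without D26s1 and 448 without D26s2.

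**Figure D1:**
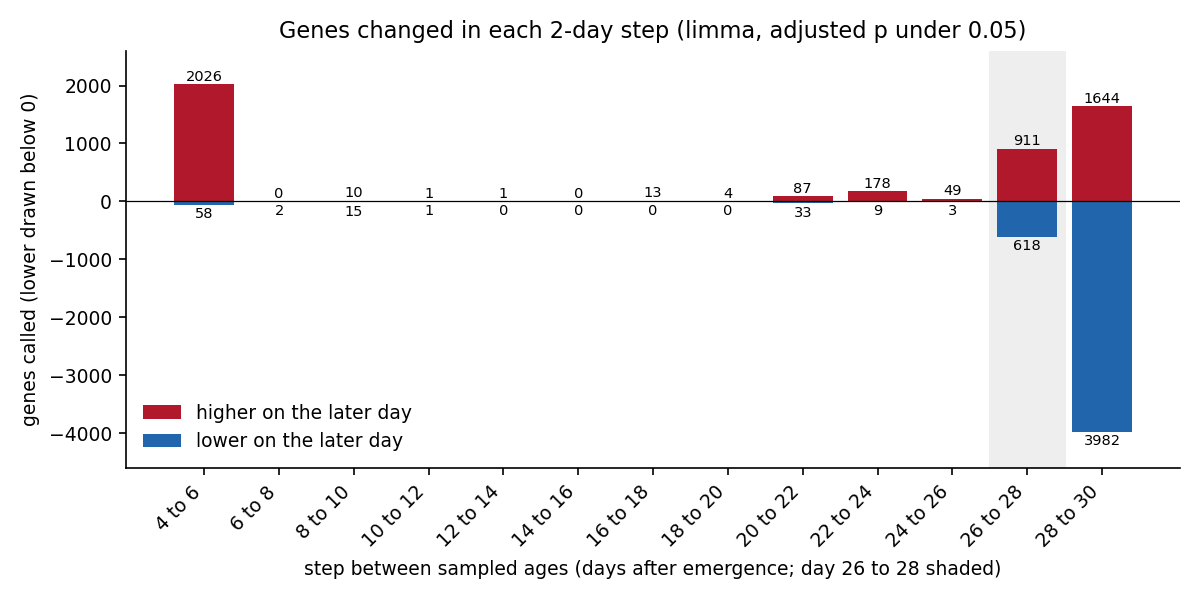
Number of genes called in each of 13 steps between neighbouring ages, with genes higher on the later day above 0 and genes lower on the later day below 0. Day 28 against day 26 (shaded) shows 911 higher and 618 lower genes, after 3 steps with 33, 9 and 3 lower genes.

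The 12 largest rises among nuclear genes with at least 5 FPKM on the higher day were led by CYP76G1 (AT3G52970), which encodes a cytochrome P450. It had 38.0 and 27.1 FPKM on day 28, against 4.41 and 1.72 FPKM on day 26, a change of 3.11 ± 0.20 (adjusted p = 4.58e-08). TPS03 (AT4G16740), a terpene synthase that makes the volatile ocimene, had 28.2 and 15.5 FPKM on day 28, against 3.62 and 1.63 FPKM on day 26 (2.66 ± 0.38, adjusted p = 0.000227). Neither gene reached 1 FPKM in a library of day 22, and both were higher again on day 30. TPS03 had also been detected earlier, with 1.53 and 5.14 FPKM on day 14 and 2.90 and 3.01 FPKM on day 16.

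SAG12 (AT5G45890) rose by 2.62 ± 0.43 (adjusted p = 0.000841) and was the most abundant of the 12. PES1 (AT1G54570), which joins the phytol released from chlorophyll to fatty acids in the chloroplast, had 405 and 295 FPKM on day 28, against 81.1 and 46.0 FPKM on day 26 (2.48 ± 0.25, adjusted p = 6.58e-06). OCT1 (AT1G73220), an organic cation and carnitine transporter, had 45.8 and 25.4 FPKM, against 7.86 and 3.54 FPKM (2.47 ± 0.24, adjusted p = 5.12e-06). GH3.17 (AT1G28130), an enzyme that conjugates the hormone auxin to amino acids, had 28.4 and 16.8 FPKM, against 6.06 and 1.52 FPKM (2.44 ± 0.35, adjusted p = 0.000247). For each of these genes both day 28 libraries lay above both day 26 libraries, and set 1 was above set 2 on each day.

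The other 6 carry no symbol in the reference and are given by locus. AT4G16640 rose by 2.73 ± 0.32, AT3G61930 by 2.60 ± 0.18, AT1G17030 and AT1G70680 by 2.51 each, AT5G46960 by 2.47 ± 0.26 and AT1G62760 by 2.44 ± 0.21. Their day 28 levels ran between 7.68 FPKM (AT1G70680, set 2) and 111 FPKM (AT1G62760, set 2), against 1.15 to 23.2 FPKM on day 26. All 12 genes passed in each of the 4 fits without 1 library.

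The falls were led by 3 plant defensin genes of the PDF1.2 group, secreted antifungal peptides used as markers of jasmonate and ethylene defence. PDF1.2 (AT5G44420) had 0.593 and 13.3 FPKM on day 28, against 146 and 122 FPKM on day 26 (-4.82 ± 1.05, adjusted p = 0.00762). PDF1.2b had 1.15 and 2.80 FPKM, against 99.0 and 38.9 FPKM (-4.47 ± 0.94, adjusted p = 0.00606), and PDF1.2c had 0.125 and 4.02 FPKM, against 36.5 and 57.1 FPKM (-4.30 ± 0.96, adjusted p = 0.00917). The days do not overlap, but the sets differed widely on some other days, with 215 and 21.9 FPKM for PDF1.2 on day 20. The adjusted p for PDF1.2 was 0.188 without D28s1, 0.0514 without D26s1 and 0.0671 without D26s2, and for PDF1.2b and PDF1.2c it was above 0.05 without D28s1 (0.137 and 0.188) and without D26s2 (0.0578 and 0.121). The 3 genes are near-identical copies, and how reads were shared among them is uncertain.

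Genes of carbon metabolism and light harvesting were also among the 12. FBA5 (AT4G26530), a fructose-bisphosphate aldolase, had 2.19 and 11.9 FPKM on day 28, against 27.7 and 73.4 FPKM on day 26 (-2.85 ± 0.34, adjusted p = 3.92e-05). Carbonic anhydrase, which interconverts carbon dioxide and bicarbonate, fell in both of its main leaf forms. CA1 had 6.42 and 16.8 FPKM, against 31.7 and 105 FPKM (-2.35 ± 0.34), and CA2 had 6.64 and 31.2 FPKM, against 51.8 and 121 FPKM (-2.36 ± 0.38). RBCS2B, a Rubisco small subunit, had 15.3 and 48.3 FPKM, against 95.5 and 197 FPKM (-2.29 ± 0.30), and the antenna gene LHCB2.3 had 3.47 and 4.97 FPKM, against 15.6 and 58.8 FPKM (-2.61 ± 0.32). For each of these genes both day 28 libraries lay below both day 26 libraries, and set 1 was below set 2 on each day.

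Of the other 4 of the 12 falls AT1G21500 was the smallest in size (-2.16 ± 0.31, adjusted p = 0.000251) and passed without each of the 4 libraries. AACT1, an acyltransferase, had 8.17 and 8.11 FPKM on day 28, against 86.6 and 28.3 FPKM on day 26 (-2.47 ± 0.67, adjusted p = 0.0266). It failed in all 4 fits without 1 library, with adjusted p between 0.054 (without D28s2) and 0.25 (without D28s1), with a pseudocount of 0.1 (0.0673), with no filter on low values (0.0605) and without the replicate block (0.0889). AT3G23550 fell by 2.46 on the log2 scale, and its adjusted p was 0.156 and 0.0527 without D28s1 and D28s2 and 0.177 without D26s1, and 0.0919 with a pseudocount of 0.1. AT5G44020 fell by 2.45 on the log2 scale, with 0.0508 without D28s1 and 0.0872 without D26s2.

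**Figure D2:**
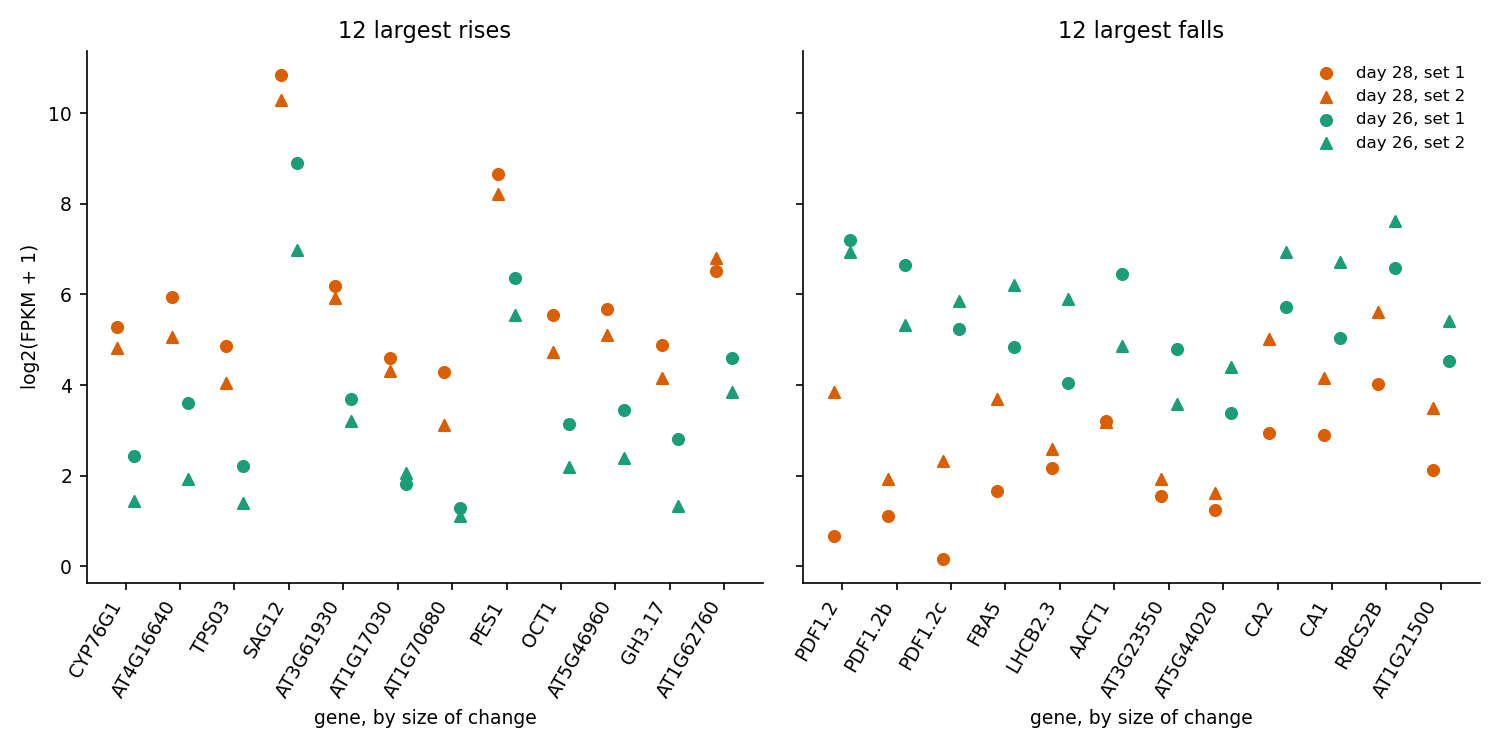
Levels of the 12 largest rises (left) and 12 largest falls (right) in each library, as log2(FPKM + 1), with day 28 to the left of day 26 for each gene, circles for set 1 and triangles for set 2. Day 28 lies above day 26 for every gene on the left and below it for every gene on the right, and among the falls the PDF1.2 group shows the widest gap.

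Counts of the gene lists that follow are to be read beside all genes tested, of which 4.99% rose and 3.39% fell. The light-harvesting antenna proteins, which bind most of the chlorophyll of the leaf, fell as a group. Falls were called for 18 of 21 measured genes and rises for 0, with a median change of -1.23 against -0.02 over all genes tested. Their summed level was 3060 and 6196 FPKM on day 28, against 7896 and 12250 FPKM on day 26. LHCB2.2 had 41.4 and 122 FPKM, against 208 and 433 FPKM (-2.06 ± 0.33, adjusted p = 0.000669), and LHCA1, of the photosystem I antenna, had 198 and 336 FPKM, against 448 and 643 FPKM (-1.05 ± 0.18, adjusted p = 0.000961). LHCB4.1 had 213 and 314 FPKM, against 415 and 508 FPKM (-0.83 ± 0.14, adjusted p = 0.000861). Set 1 was lower than set 2 on both days in these genes, and in 18 of the 21 both day 28 libraries lay below both day 26 libraries, against 28.2% of all genes tested.

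The 3 members that did not pass are those of unusual or minor antenna proteins. LHCA5 had 57.2 and 63.2 FPKM on day 28, against 50.5 and 61.1 FPKM on day 26 (0.11 ± 0.12, adjusted p = 0.674). LHCB7 had 5.76 and 6.96 FPKM, against 4.17 and 7.72 FPKM (0.13 ± 0.23), and LHCB4.3 changed by -0.25 ± 0.39. In the antenna list 5 genes passed without D28s1 and 9 without D26s2, against 18 and 17 without the other libraries and 18 without day 4. Without set as a replicate block 5 fell, and LHCA1 (adjusted p = 0.0781) and LHCB4.1 (0.0798) did not pass. Reads of the near-identical LHCB1 and LHCB2 copies may have been divided among them.

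Subunits of the photosystems and the electron transport chain encoded in the nucleus fell in 27 of 33 cases, against 3.39% of all genes. The list had 0 rises and a median of -0.84. All 33 had an unadjusted p under 0.05 and a lower level on day 28, as did 1959 of all 18239 genes tested. PSB27, an assembly factor of photosystem II, had 25.4 and 42.3 FPKM, against 76.6 and 111 FPKM (-1.46 ± 0.22, adjusted p = 0.000447). PETE2, a plastocyanin that carries electrons to photosystem I, had 95.7 and 161 FPKM, against 258 and 345 FPKM (-1.26 ± 0.19, adjusted p = 0.000385). PSBW, a small photosystem II subunit, had 211 and 319.5 FPKM, against 378 and 507 FPKM (-0.75 ± 0.13, adjusted p = 0.00182). The smallest change of the list was that of PSBR, at -0.44 ± 0.14 (adjusted p = 0.0649). Only 4 of the 33 passed without D28s1 and 8 without D26s2, with 23 without D28s2, 18 without D26s1 and 33 without day 4. Without the replicate block 6 fell, and PSBW did not pass (adjusted p = 0.147).

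Of 20 genes of the Calvin-Benson cycle, which fixes carbon dioxide, 15 fell and 0 rose (median -0.89), where 3.39% of all genes tested fell. The 4 Rubisco small subunit genes fell to different degrees: RBCS2B by 2.29, RBCS1B by 1.78, RBCS3B by 1.7 and RBCS1A, the most abundant, by 0.92 on the log2 scale. They are near-identical, so their separate levels are uncertain, and RBCS1B did not pass without D28s1 or D26s2. FBA2, a chloroplast aldolase, had 184 and 242 FPKM on day 28, against 388 and 468 FPKM on day 26 (-1.01 ± 0.15, adjusted p = 0.000452), and PGK1, a phosphoglycerate kinase, had 103 and 117 FPKM, against 193 and 212 FPKM (-0.88 ± 0.16, adjusted p = 0.0017). CP12-1, a small regulator of the cycle, had 144 and 161 FPKM, against 158 and 144 FPKM (0.01 ± 0.19). In this list 6 genes passed without D28s1, 12 without D28s2, 11 without D26s1 and 6 without D26s2, and 19 without day 4. Without the replicate block 7 fell, and RBCS1A did not pass (adjusted p = 0.0702).

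Photorespiration, which salvages the product of Rubisco's reaction with oxygen, fell in 9 of 14 genes, against 3.39% of all genes. The list had 0 rises (median -0.68). GDCH, a subunit of glycine decarboxylase, had 25.4 and 41.4 FPKM, against 62.1 and 90.08 FPKM (-1.18 ± 0.24, adjusted p = 0.00469), and GOX1, a glycolate oxidase, had 177 and 271 FPKM, against 291 and 412 FPKM (-0.66 ± 0.15, adjusted p = 0.00995). Of these calls few held in other fits: 0 of the 14 genes passed without D28s1 and 0 without D26s2, against 8 and 7 without the other libraries and 11 without day 4. Without the replicate block 1 fell, and neither GDCH (adjusted p = 0.0531) nor GOX1 (0.207) passed.

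The genes of the chloroplast's own genome were lower as well, though fewer passed. Of 111 measured genes 17 fell and 0 rose (median -0.53), and 40 fell without day 4. Their share of summed FPKM was 7.40% and 8.75% on day 28, against 9.86% and 11.1% on day 26, with no overlap between the days. The share was not tested. Without D28s1 only 2 of them passed and without D26s2 only 1, against 12 without each of the other libraries, and 7 passed without the replicate block. Of 94 mitochondria-encoded genes 2 fell and 0 rose (median -0.17), 0 passed in any fit without 1 library and 7 fell without day 4. Their share was 1.97% and 1.5% on day 28, against 2.02% and 1.66% on day 26.

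**Figure D3:**
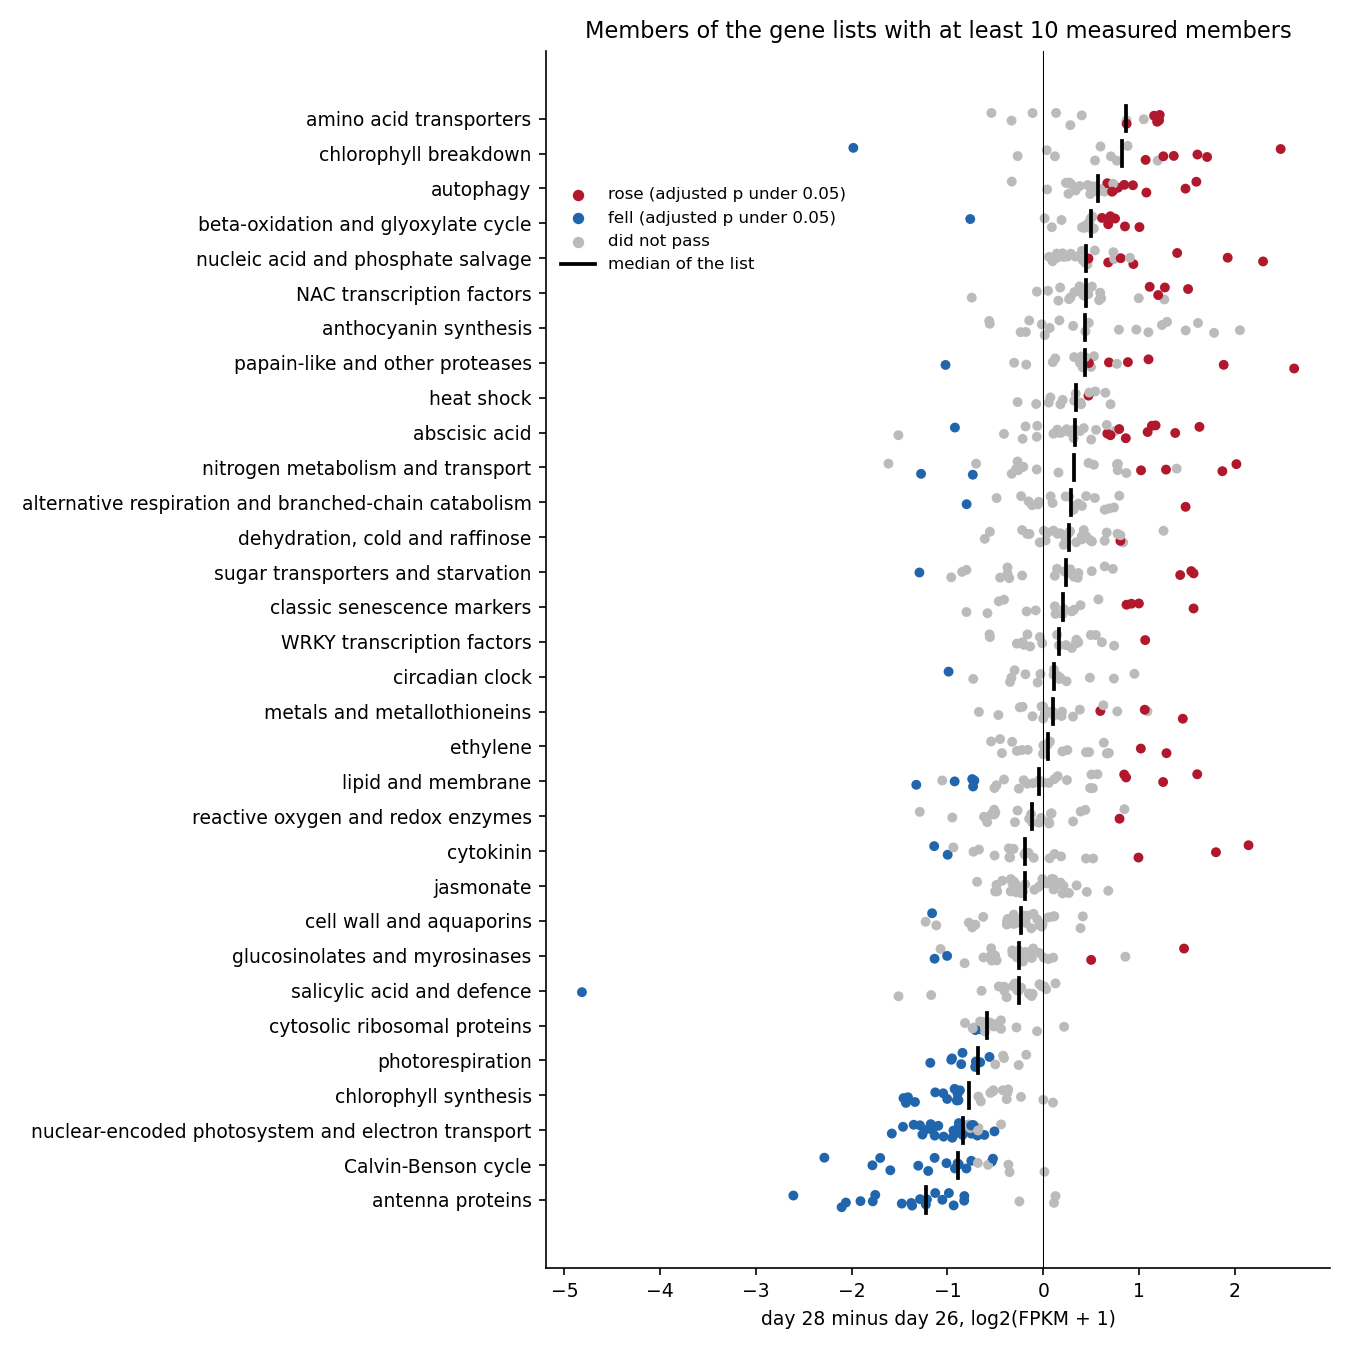
Change of each measured member of 32 gene lists with at least 10 measured members, day 28 minus day 26 on the log2(FPKM + 1) scale, with red for members that rose, blue for those that fell, grey for those that did not pass and a black bar for the median. Antenna, Calvin-Benson cycle, photosystem and chlorophyll synthesis lists lie left of 0 (medians -1.23 to -0.77), and amino acid transporters, chlorophyll breakdown and autophagy have the highest medians (0.87, 0.83 and 0.57).

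Chlorophyll metabolism moved in opposite directions in its synthetic and degradative branches. Of 24 genes of chlorophyll synthesis 12 fell and 0 rose (median -0.77), where 3.39% of all genes tested fell. Without day 4, 20 fell. CHLH, a subunit of the magnesium chelatase that commits porphyrin to chlorophyll, had 27.4 and 62.0 FPKM on day 28, against 79.3 and 142 FPKM on day 26 (-1.34 ± 0.21, adjusted p = 0.000561). CHLM, the next enzyme in the pathway, had 9.50 and 19.6 FPKM, against 29.6 and 52.3 FPKM (-1.46 ± 0.25, adjusted p = 0.00107), though it did not pass when its transcript model with the highest level was used in place of the sum. PORC, a protochlorophyllide reductase, had 14.3 and 16.2 FPKM, against 29.8 and 33.4 FPKM (-1.0 ± 0.19, adjusted p = 0.00241). PPOX, which acts before the branch to heme, had 27.8 and 30.0 FPKM, against 27.4 and 30.4 FPKM. In this list 4 genes passed without D28s1 and 6 without D26s2, against 11 and 12 without the others.

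Of 16 genes of chlorophyll breakdown 6 rose and 1 fell (median 0.83), where 4.99% of all genes tested rose and 3.39% fell. Without day 4, 11 rose. NYC1, which starts the conversion of chlorophyll b, had 503 and 568 FPKM on day 28, against 199.97 and 215 FPKM on day 26 (1.36 ± 0.24, adjusted p = 0.00164). SGR1, the magnesium dechelatase of the stay-green gene family, had 293 and 278 FPKM, against 96.4 and 89.5 FPKM (1.61 ± 0.20, adjusted p = 6.17e-05). PPH, which removes the phytol tail of pheophytin, had 303 and 295 FPKM, against 153 and 132 FPKM (1.07 ± 0.22, adjusted p = 0.00457, but 0.0711 without D26s2 and 0.176 with the highest transcript model). Levels of each of these genes on day 28 were above those on day 26 in both sets.

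PES2, like PES1 a phytyl ester synthase, rose by 1.25 ± 0.30, and SGR2, a relative of SGR1, rose by 1.71 ± 0.33. Their calls depend on libraries: PES2 had an adjusted p of 0.0893 and 0.0837 without D28s1 and D28s2 and 0.137 without D26s2, and SGR2 had 0.0546 without D28s1 and 0.0834 without D26s2. PAO, the oxygenase that opens the chlorophyll ring, missed the threshold with 222 and 235 FPKM on day 28, against 146 and 133 FPKM on day 26 (0.71 ± 0.22, adjusted p = 0.0509). The member that fell was the chlorophyllase gene CLH1, with 16.2 and 16.6 FPKM, against 66.2 and 69.5 FPKM (-1.98 ± 0.46, adjusted p = 0.011). Its adjusted p was 0.112 without D28s1 and 0.117 without D26s2. Without D26s2, 3 genes of the list rose.

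**Figure D4:**
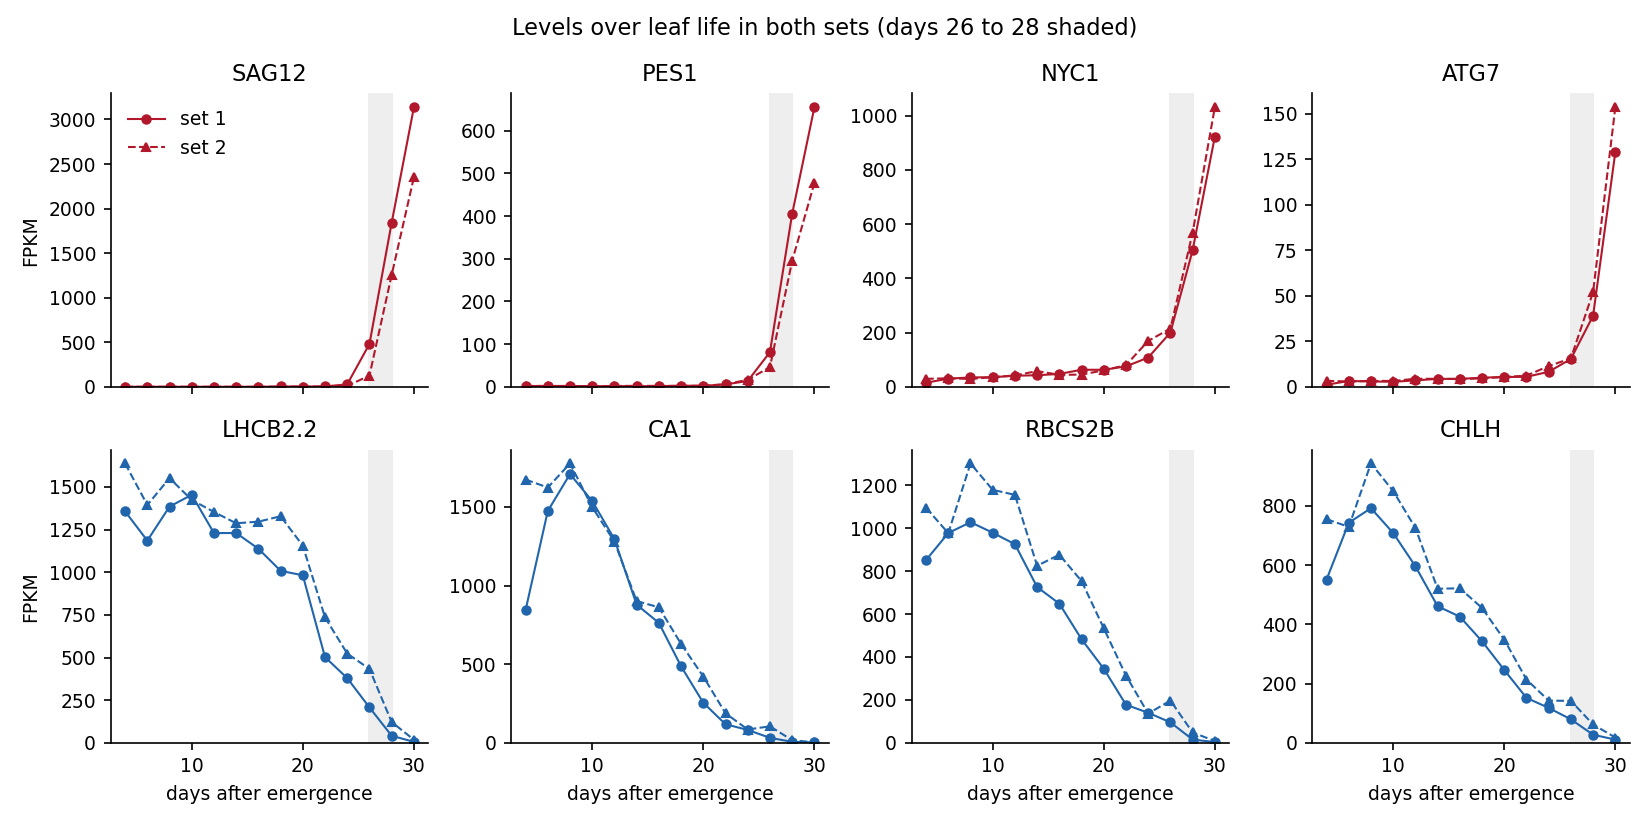
FPKM of 4 genes that rose (top) and 4 that fell (bottom) at the 14 ages, with set 1 as circles and set 2 as triangles and days 26 to 28 shaded. On day 22 SAG12 had 3.96 and 1.74 FPKM and PES1 5.55 and 5.91 FPKM, and on day 30 they had 3134 and 2350.0 FPKM and 655 and 477.5 FPKM. The 4 genes below were already far under their day 10 level on day 26.

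Proteases of the vacuole and of cell death rose in 6 of 19 genes, where 4.99% of all genes tested rose. The list had 1 fall (median 0.44), and 8 rose without day 4. MC9, a metacaspase that acts in programmed cell death, had 30.5 and 32.6 FPKM on day 28, against 5.37 and 11.2 FPKM on day 26 (1.88 ± 0.28, adjusted p = 0.000378). RD21A, an abundant papain-like protease, had 779.5 and 838 FPKM, against 448 and 427 FPKM (0.88 ± 0.17, adjusted p = 0.0025, and 0.0637 without D26s2). RD19A, of the same family and as abundant, had 745 and 771 FPKM, against 599 and 542 FPKM and did not pass (0.41 ± 0.18, adjusted p = 0.183). MC2, a metacaspase described as a negative regulator of cell death, fell with 5.60 and 5.65 FPKM, against 14.4 and 10.7 FPKM (-1.02 ± 0.25, adjusted p = 0.0145). Its adjusted p was 0.0501 and 0.143 without D28s1 and D28s2 and 0.226 without D26s1. Without D28s1, D28s2 or D26s1, 3 genes of the list rose, and 4 without D26s2.

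Autophagy, which carries cytoplasm and pieces of chloroplasts to the vacuole, rose in 9 of 27 genes, where 4.99% of all genes tested rose, with 0 falls (median 0.57), and in 18 without day 4. ATG7, the activating enzyme of both conjugation systems, had 39.1 and 52.1 FPKM, against 15.3 and 15.6 FPKM (1.49 ± 0.21, adjusted p = 0.000213). ATG8H, of the family of proteins that are attached to the autophagosome membrane, had 15.8 and 20.4 FPKM, against 4.47 and 6.18 FPKM (1.60 ± 0.32, adjusted p = 0.00409), and ATG18H had 42.8 and 44.3 FPKM, against 21.9 and 22.7 FPKM (0.94 ± 0.16, adjusted p = 0.00101). In 25 of the 27 genes both day 28 libraries were above both day 26 libraries, against 26% of all genes tested. The cargo receptor NBR1 had 297 and 321 FPKM, against 263 and 261 FPKM (0.24 ± 0.13, adjusted p = 0.297). Without D28s1 or D26s2, 3 genes rose, and 4 without D26s1. ATG8H did not pass with a pseudocount of 0.1.

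Nucleic acid and phosphate salvage rose in 7 of 24 genes with 0 falls (median 0.45), and in 12 without day 4. The nucleases led. BFN1, a nuclease of senescence and developmental cell death, had 46.8 FPKM in both day 28 libraries, against 6.19 and 12.2 FPKM on day 26 (2.3 ± 0.31, adjusted p = 0.000162). DPD1, which degrades organelle DNA, had 95.3 and 76.2 FPKM, against 23.7 and 19.8 FPKM (1.93 ± 0.25, adjusted p = 0.000111). RNS1, a ribonuclease also induced by low phosphate, had 6.67 and 6.05 FPKM, against 1.2 and 2.53 FPKM (1.4 ± 0.22, adjusted p = 0.000709), and did not pass with a pseudocount of 0.1. Without 1 library 3 or 4 genes passed, with 3 without D28s2 and without D26s1 and 4 without each of the others.

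Nitrogen genes were divided. Of 22 genes of nitrogen metabolism and transport 4 rose and 2 fell (median 0.32), against 4.99% and 3.39% of all genes. Without day 4 the counts were 8 and 3. NRT1.5, a nitrate transporter, had 89.8 and 79.3 FPKM on day 28, against 26.1 and 15.4 FPKM on day 26 (2.02 ± 0.34, adjusted p = 0.00109), and was the one gene of the list that passed in all 4 fits without 1 library. GLN2, the chloroplast glutamine synthetase, fell with 75.3 and 118 FPKM, against 131 and 189 FPKM (-0.74 ± 0.18, adjusted p = 0.0165), a call lost without D28s1 or D26s2 and with the highest transcript model. GLN1;1, the cytosolic form, had 924 and 700.2 FPKM, against 568 and 341 FPKM, and did not pass (0.87 ± 0.38, adjusted p = 0.18). The number that rose was 1 without D28s1 or D26s2, 2 without D28s2 and 4 without D26s1, and falls were 0, 0, 3 and 1 in the same order.

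Amino acid transporters rose in 5 of 13 measured genes with 0 falls, where 4.99% of all genes tested rose. Their median of 0.87 was the highest of the lists with at least 10 measured members, and 7 rose without day 4. AAP1 had 78.4 and 83.3 FPKM, against 34.7 and 33.8 FPKM (1.22 ± 0.20, adjusted p = 0.000781). AAP3 had 9.84 and 8.30 FPKM, against 3.49 and 3.31 FPKM (1.19 ± 0.17, adjusted p = 0.000239). Both encode amino acid permeases of the plasma membrane, and the days are far apart in each. Without D28s1 or D26s2, 2 genes rose, and 3 without D26s1.

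Sugar transporters and sugar starvation genes rose in 3 of 25 cases and fell in 1 (median 0.24), against 4.99% and 3.39% of all genes. Without day 4 the counts were 4 and 2. SWEET15, the sugar exporter also known as SAG29, had 42.2 and 118 FPKM on day 28, against 10.6 and 49.1 FPKM on day 26, so that the days overlap between sets (1.57 ± 0.46, adjusted p = 0.0426). Its adjusted p was 0.067 without D28s1, 0.345 without D28s2 and 0.483 without D26s1. Here set 2 was the higher one on both days, the reverse of SAG12. The list had 1 rise without either day 28 library, 0 without D26s1 and 2 without D26s2.

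Fatty acid breakdown in the peroxisome and the glyoxylate cycle rose in 6 of 18 measured genes with 1 fall (median 0.50), and in 11 without day 4. ACX2, an acyl-CoA oxidase, had 115 and 127 FPKM, against 56.0 and 63.7 FPKM (1.00 ± 0.20, adjusted p = 0.00408). ICL and MLS, the enzymes peculiar to the glyoxylate cycle, did not reach the filter on low values. Without 1 library 1 or 2 genes of the list rose, with 1 without D28s1 or D26s2 and 2 without the others.

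Lipid and membrane genes moved both ways, with 4 rises and 5 falls among 27 (median -0.04), against 4.99% and 3.39% of all genes. PLDP2, a phospholipase D, had 27.8 and 27.6 FPKM on day 28, against 11.9 and 10.2 FPKM on day 26 (1.25 ± 0.15, adjusted p = 5.4e-05). The falls include the desaturases FAD3, FAD5, FAD6 and FAD8, which make the unsaturated fatty acids of membranes, and FAD5 had 4.15 and 7.98 FPKM, against 11.9 and 21.4 FPKM (-1.33 ± 0.23, adjusted p = 0.00139). None of the 5 falls held without D28s1 or without D26s2. Rises were 1 without either of those libraries, 3 without D28s2 and 2 without D26s1, and without day 4 the list had 7 rises and 7 falls.

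Among 23 genes of metal handling 3 rose and 0 fell (median 0.10), where 4.99% of all genes tested rose. Without day 4, 4 rose. HMA5, a copper-transporting ATPase, had 5.29 and 5.71 FPKM, against 2.07 and 2.16 FPKM (1.06 ± 0.15, adjusted p = 0.000247). Without D28s1 or D26s2 only 1 gene rose. Of 22 genes of alternative respiration and branched-chain and lysine catabolism 1 rose and 1 fell (median 0.29), against 4.99% and 3.39% of all genes. Without day 4 the counts were 6 and 1. LKR/SDH, the enzyme that breaks down lysine, had 115 and 175 FPKM, against 44.7 and 55.9 FPKM (1.49 ± 0.26, adjusted p = 0.00131). NDA1, an alternative NADH dehydrogenase, fell with 9.86 and 14.8 FPKM, against 18.4 and 25.8 FPKM (-0.80 ± 0.23, adjusted p = 0.0341), and passed in none of the 4 fits without 1 library.

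Among the hormones abscisic acid showed the most changes, with 9 rises and 1 fall in 31 measured genes (median 0.33). The shares over all genes tested were 4.99% and 3.39%. Without day 4, 13 genes of abscisic acid rose. NCED enzymes cleave carotenoids in the committed step of its synthesis. NCED9 had 5.01 and 4.54 FPKM on day 28, against 0.890 and 0.837 FPKM on day 26 (1.63 ± 0.11, adjusted p = 4.58e-08), and NCED2 had 2.29 and 1.66 FPKM, against 0.194 and 0.0816 FPKM (1.38 ± 0.12, adjusted p = 2.2e-06). NCED3, the form best known from drought, was more abundant on both days and did not pass, with 28.5 and 27.3 FPKM, against 22.4 and 26.6 FPKM (0.19 ± 0.39, adjusted p = 0.853).

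AAO3, which makes abscisic acid from its aldehyde, had 25.3 and 27.4 FPKM, against 11.2 and 12.6 FPKM (1.09 ± 0.19, adjusted p = 0.00132). HAI2, a protein phosphatase that represses the response and is induced by the hormone, had 18.5 and 15.3 FPKM, against 7.64 and 6.24 FPKM (1.17 ± 0.23, adjusted p = 0.0036). The member that fell was the receptor gene PYL4, with 4.14 and 2.53 FPKM, against 10.4 and 4.70 FPKM (-0.92 ± 0.26, adjusted p = 0.0353), a call lost without each library other than D26s2. Rises in the list were 6 without D28s2 and 5 without each of the other 3 libraries.

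Ethylene genes rose in 2 of 23 cases with 0 falls (median 0.05), where 4.99% of all genes tested rose. Without day 4, 4 rose. ACS2, which makes the precursor ACC, had 11.1 and 12.6 FPKM on day 28, against 4.21 and 4.29 FPKM on day 26 (1.29 ± 0.16, adjusted p = 8.41e-05), and did not pass with a pseudocount of 0.1. Without D28s1 or D26s2, 1 gene of the list rose. The signalling gene EIN2 had 40.3 and 51.5 FPKM, against 39.9 and 47.5 FPKM (0.06 ± 0.15).

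Of 22 cytokinin genes 3 rose and 2 fell (median -0.19), where 4.99% of all genes tested rose and 3.39% fell. Without day 4 the counts were 4 and 3. CKX5, which degrades cytokinin, had 66.4 and 45.9 FPKM on day 28, against 16.3 and 8.36 FPKM on day 26 (2.14 ± 0.30, adjusted p = 0.000174). IPT3, which makes it, fell with 1.84 and 2.58 FPKM, against 3.96 and 8.93 FPKM (-1.14 ± 0.29, adjusted p = 0.0191). The response regulators, which are induced by the hormone, differed among themselves: ARR4 fell with 24.3 and 24.9 FPKM, against 45.3 and 55.5 FPKM (-1.0 ± 0.22), while ARR16 rose with 15.4 and 9.12 FPKM, against 3.40 and 2.09 FPKM (1.8 ± 0.33). Both falls were lost without each library other than D26s1, and ARR16 had an adjusted p of 0.0652 without D28s1 and 0.0556 without D26s2, where 1 gene of the list rose.

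No gene passed in the jasmonate list, which does not hold the PDF1.2 group. Of 33 genes 0 rose and 0 fell with limma (median -0.19), 0 higher and 1 lower had an unadjusted p under 0.05, and the counts were also 0 without day 4 and in all 4 fits without 1 library. LOX2, a lipoxygenase of jasmonate synthesis, had 149 and 199 FPKM on day 28, against 251 and 308 FPKM on day 26 (-0.69 ± 0.29, adjusted p = 0.163). Of 23 genes of salicylic acid and defence the 1 that fell was PDF1.2, and 0 rose (median -0.26), where 3.39% of all genes fell. PR1, the usual marker of salicylic acid, had 63.1 and 61.3 FPKM, against 128 and 74.5 FPKM (-0.64 ± 0.53, adjusted p = 0.539).

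Of 591 measured transcription factor genes, taken by their names in the reference, 36 rose and 9 fell. Over all genes tested 4.99% rose and 3.39% fell. Of the 8 largest rises with at least 5 FPKM on day 28, 6 were NAC genes. NAC047 had 77.6 and 74.7 FPKM on day 28, against 24.5 and 27.6 FPKM on day 26 (1.51 ± 0.18, adjusted p = 3.4e-05). NAC041 had 85.6 and 75.6 FPKM, against 30.7 and 27.1 FPKM (1.45 ± 0.20, adjusted p = 0.00015), and NAC100 had 13.7 and 7.73 FPKM, against 4.3 and 2.69 FPKM (1.36 ± 0.20, adjusted p = 0.000275). NAC084 and NAC080 rose by 1.31 ± 0.19 and 1.29 ± 0.18. Over the whole family, a grouping made after the values were seen, 12 of 56 NAC genes rose and 0 fell, 21.4% against 4.99% of all genes tested.

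NAC055, a factor of the jasmonate and stress response, had 123 and 135 FPKM, against 54.0 and 51.5 FPKM (1.27 ± 0.38, adjusted p = 0.0464). MYB2 had 132 and 92.7 FPKM, against 49.7 and 27.5 FPKM (1.55 ± 0.41, adjusted p = 0.024). Neither passed in any fit without 1 library, with adjusted p of 0.142 to 0.243 for NAC055 (without D26s1 and D26s2) and 0.0615 to 0.22 for MYB2 (without the same libraries). MP, an auxin response factor, had 8.39 and 11.4 FPKM, against 2.05 and 4.60 FPKM (1.39 ± 0.24, adjusted p = 0.00135). With a pseudocount of 0.1 the calls of NAC047 and NAC084 were lost too, and NAC080 was lost with the highest transcript model in place of the sum.

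In the list of 22 NAC genes with known roles in senescence and stress 4 rose and 0 fell (median 0.45), and 7 rose without day 4. The best-known promoters of leaf senescence did not pass. ORE1 had 96.8 and 112 FPKM on day 28, against 60.8 and 43.8 FPKM on day 26 (1.00 ± 0.44, adjusted p = 0.186), and NAP had 293 and 274 FPKM, against 137 and 101 FPKM (1.26 ± 0.60, adjusted p = 0.227). Both were higher on day 28 in each set, and their standard errors were among the widest of the list. JUB1, which delays senescence, had 17.8 and 15.8 FPKM, against 16.3 and 11.6 FPKM (0.27 ± 0.19). The list had 1 or 2 rises in the fits without 1 library, with 2 without D26s1 and 1 without each of the others.

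Of 21 WRKY genes 1 rose and 0 fell (median 0.16), where 4.99% of all genes tested rose and 3.39% fell. Without day 4, 2 rose. WRKY75, which promotes senescence, had 40.0 and 39.7 FPKM, against 21.1 and 16.3 FPKM (1.06 ± 0.15, adjusted p = 0.000239), and did not pass with a pseudocount of 0.1. WRKY53, an early regulator, had 46.5 and 18.9 FPKM on day 28, against 50.4 and 38.8 FPKM on day 26 (-0.56 ± 0.64, adjusted p = 0.69). Without D28s2, 2 genes of the list rose.

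The 8 largest falls among transcription factors at 5 FPKM or more lay between -1.29 (ATCTH, a zinc finger protein) and -0.66 (LBD21). They include the B-box genes BBX14 and BBX16, the zinc finger gene ZAT7, the clock regulator CHE, the growth-regulating factor GRF3 and the auxin response factor ETT. BBX14 had 10.4 and 16.1 FPKM on day 28, against 25.3 and 38.9 FPKM on day 26 (-1.21 ± 0.25, adjusted p = 0.00567). Each of the 8 lost its call without 2 or more of the 4 libraries, in each case with D26s2 among them.

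Cytosolic ribosomal protein genes were mostly lower on day 28, and few passed. Of 18 genes 2 fell and 0 rose (median -0.58), and 11 fell without day 4. At an unadjusted p under 0.05, 14 had a lower level, as did 1959 of all 18239 genes tested. RPL3A had 131 and 138 FPKM, against 223 and 204 FPKM (-0.66 ± 0.19, adjusted p = 0.0335), and RPS18A had 29.0 and 31.7 FPKM, against 49.8 and 50.4 FPKM (-0.71 ± 0.19, adjusted p = 0.0236). Neither passed in any fit without 1 library. RPL10C had 150.4 and 184 FPKM, against 134 and 152 FPKM (0.22 ± 0.19).

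Counts for genes of stress and secondary metabolism are to be read beside all genes tested, of which 4.99% rose and 3.39% fell. In the list of 30 dehydration, cold and raffinose genes 1 rose, DREB2A, with 0 falls (median 0.27), and the counts were 3 and 1 without day 4 and 3, 0, 0 and 1 rises without D28s1, D28s2, D26s1 and D26s2. Of 15 heat shock genes 1 rose, the factor HSFA2, with 0.506 and 0.933 FPKM, against 0.273 and 0.188 FPKM, and 1, 0, 0 and 0 rose in the same 4 fits. Of 24 genes of reactive oxygen and redox enzymes 1 rose, APX6 (0.80 ± 0.21), which passed in none of these fits, and 5 fell without day 4. Of 29 glucosinolate and myrosinase genes 2 rose and 2 fell (median -0.25). NSP5, a nitrile specifier protein, rose with 55.4 and 62.8 FPKM, against 20.9 and 20.3 FPKM (1.47 ± 0.35, adjusted p = 0.0122), and held without D28s1 alone among these fits.

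Anthocyanin synthesis had 0 rises and 0 falls among 21 genes with limma, with 2 higher and 0 lower at an unadjusted p under 0.05, and a median of 0.44. PAP2, a MYB activator of the pathway, had 65.5 and 17.4 FPKM on day 28, against 22.9 and 1.97 FPKM on day 26 (2.05 ± 0.68, adjusted p = 0.071), so the days overlap between sets. Here 1 gene rose without D28s2, 1 without D26s1 and 1 without day 4. Of 17 clock genes 1 fell, CHE, with a median of 0.11, and 0 fell without D28s1 or D26s2. Of 30 cell wall and aquaporin genes 1 fell, the expansin gene EXPA6, with 2.15 and 1.77 FPKM, against 4.00 and 7.73 FPKM, and it passed in none of the fits without 1 library, while 5 fell without day 4.

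Of 18 classic senescence markers, a list that does not hold SAG12, 4 rose and 0 fell (median 0.21), with 4 without day 4. SAG13, a short-chain dehydrogenase, had 76.3 and 95.3 FPKM on day 28, against 43.0 and 49.7 FPKM on day 26 (0.87 ± 0.22, adjusted p = 0.0208). The others are SAG15, YLS4 and SAG29, which is SWEET15. Of these 4 genes only SWEET15 passed in any fit without 1 library, without D26s2.

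Counts for markers of other cell types stand beside 4.99% of all genes tested that rose and 3.39% that fell. Of 6 measured guard cell and stomatal lineage genes 1 rose, the potassium channel KAT1, with 12.7 and 12.4 FPKM on day 28, against 5.86 and 6.91 FPKM on day 26 (0.88 ± 0.23, adjusted p = 0.0246), a call lost without each of the 4 libraries in turn, and the list summed to 22.5 and 20.9 FPKM, against 13.0 and 14.8 FPKM. SPCH, MUTE and EPF2 did not reach the filter on low values. Of 8 vascular markers 0 rose and 0 fell with limma, with 0 at an unadjusted p under 0.05 in either direction, and they summed to 129 and 112 FPKM, against 133 and 158 FPKM. Of 8 shoot meristem and flower markers 3 were measured and 0 changed, also at an unadjusted p, with sums of 2.09 and 1.47 FPKM, against 1.92 and 1.63 FPKM. The 1 measured trichome marker, TRY, did not pass, with 0.0768 and 0.240 FPKM, against 0.176 and 1.18 FPKM. Without day 4 the guard cell list had 2 rises and the vascular list 1.

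Most genes called between day 26 and day 28 had their highest or lowest mean level on day 30. They were chosen by the libraries of days 26 and 28. A gene that rose therefore cannot peak on day 26, nor can a gene that fell be lowest there. The shares over all genes are thus not a like background, and change after day 28 was not tested for these genes as a set. Among the 911 genes that rose, the highest mean level of leaf life was on day 30 for 856 and on day 28 for 51, where 5175 of all 18239 genes tested peaked on day 30. Among the 618 that fell, the lowest mean was on day 30 for 564 and on day 28 for 6, against 4892 of all genes on day 30. The step from day 22 to day 24 shares no library with that from day 26 to day 28. In that earlier step 92.0% of the genes that later rose had a positive change, against 57.8% of all genes tested, with a median of 0.33, and 80 of them were called higher and 0 lower. Of the genes that later fell 12.9% had a positive change, and 7 were called lower and 0 higher.

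A test of the difference between the 2 steps asked which genes moved differently from day 26 to 28 than from day 22 to 24. It called 75 genes (0.411%), 58 with a more positive change in the later step and 17 with a more negative one, and 66 of the 75 were also called between day 26 and day 28. At an unadjusted p under 0.05 the count was 1435. Leaving out 1 library gave 23 without the day 24 library D24s1, 44 without D24s2, 26 without D22s1, 32 without D22s2 and 35 without D26s2, with 53 to 68 without D28s1, D28s2 or D26s1, and 244 were called without day 4.

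The 5 largest positive differences were in genes that changed by -0.43 to 0.37 in the earlier step. That earlier change is part of the value by which the genes were picked. CYP76G1 differed by 2.74 ± 0.28 (adjusted p = 9.85e-05), with a change of 3.11 from day 26 to 28 and 0.37 from day 22 to 24, and was called in each of the 8 fits without 1 library. CYP76G1 had 0.129 and 0 FPKM on day 22 and 0.493 and 0.262 FPKM on day 24, so the log2(FPKM + 1) scale understates its earlier change. With a pseudocount of 0.1 its difference did not pass (adjusted p = 0.516). TPS03 differed by 2.57 ± 0.53 (adjusted p = 0.0425), with 2.66 and 0.09 in the 2 steps. AT1G25530 differed by 2.43 ± 0.42 (adjusted p = 0.0117). LBO1, an oxidoreductase of strigolactone synthesis, had 22.9 and 14.5 FPKM on day 28, against 3.08 and 2.92 FPKM on day 26, and differed by 2.2 ± 0.38 (adjusted p = 0.0125). ARR16 differed by 2.23 ± 0.47 (adjusted p = 0.0444), with 1.8 and -0.43 in the 2 steps. Of list members NCED9 differed by 1.38 ± 0.15 (adjusted p = 0.000145), NCED2 by 1.31 ± 0.17 (adjusted p = 0.001) and CKX5 by 2.11 ± 0.42 (adjusted p = 0.0348).

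The largest negative differences were in genes with a positive change in the earlier step, which is likewise part of the value that picked them. AT5G44568 differed by -2.61 ± 0.39 (adjusted p = 0.00308), with 1.85 and 6.27 FPKM on day 28, against 15.4 and 23.8 FPKM on day 26, and was called in each of the 8 fits without 1 library but not without the replicate block (adjusted p = 0.209). RLP39, a receptor-like protein, changed by -0.86 from day 26 to 28 and by 0.77 from day 22 to 24. GLR2.8, a glutamate receptor-like channel, changed by -0.53 and 1.06 in the 2 steps, the receptor-like kinase gene CCR4 by -0.28 and 1.19, and AT2G27660 by -0.31 and 1.08. The later changes of GLR2.8, CCR4 and AT2G27660 did not pass on their own. Apart from CYP76G1 and AT5G44568, each of the 10 genes lost its call in 1 or more of the 8 fits: without D24s1 the adjusted p was 0.182 for TPS03, 0.0802 for AT1G25530, 0.158 for ARR16, 0.0880 for LBO1, 0.107 for RLP39, 0.157 for GLR2.8, 0.283 for CCR4 and 0.0501 for AT2G27660.

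**Figure D5:**
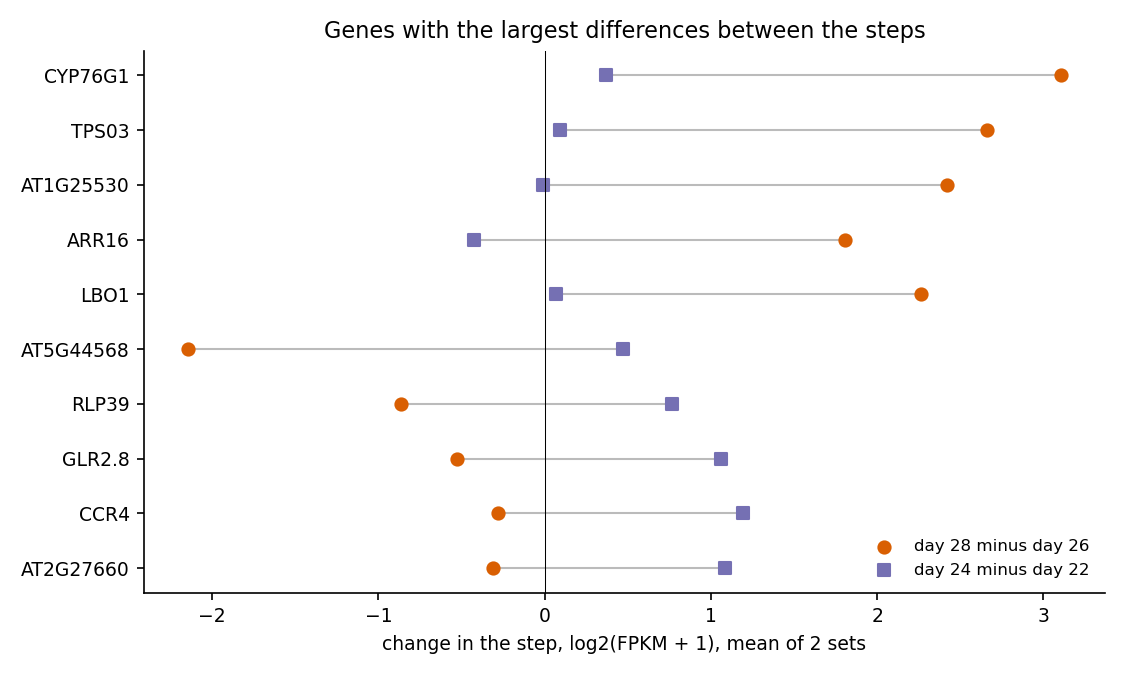
Change in log2(FPKM + 1), as the mean of 2 sets, from day 26 to day 28 (circles) and from day 22 to day 24 (squares) for the 5 genes with the largest positive and the 5 with the largest negative difference between the steps. The upper 5 genes lie between 1.8 and 3.11 in the later step and between -0.43 and 0.37 in the earlier one.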

How the data were processed

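Total RNA FPKM values per transcript were deposited by the authors in 1 table per set, made with TopHat 1.4.0 and Cufflinks on TAIR10, per the submitters' processing notes. No further settings are given in the sources used. The 41673 transcript values were summed to 33604 genes by the identifier before the dot, of which 32835 matched reference names (assembly TAIR10.1, names only). The 18239 genes that reached 1 FPKM in 2 or more of the 28 libraries were fitted as log2(FPKM + 1) with limma 3.58.1 (trend) in R 4.3.3, with day as a factor and set as a block, and the threshold was 0.05 after Benjamini-Hochberg adjustment across the 18239 genes. The difference between the steps from day 26 to 28 and from day 22 to 24 was a contrast of the same fit. The model was tested on simulated data. The 37 gene lists (782 genes, 731 measured) and the rules were chosen with earlier results of these data known.

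Named genes are the 12 largest rises and 12 largest falls among nuclear genes passing in the same direction in both sets with a mean of at least 5 FPKM on the higher day, the 5 largest differences between steps in each direction, the 8 largest rises and falls among transcription factors, and list members. Lists were described by counts and medians and not tested. Alternatives were pseudocount 0.1, other filters, 2 rescalings, no block, fewer days, the highest transcript model, and each library left out. The depth per sample, and the precision it gives, is unknown from FPKM. Small RNA libraries were not used. Figures were drawn with matplotlib 3.10.9 in Python 3.11.15 (pandas 2.3.3, numpy 2.4.6). A result for 1 list gene is not reported here.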

Additional observations from a re-analysis of the deposited data

Results flagged for a closer look

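The step from day 26 to day 28 differed from that from day 22 to day 24 by the test of the difference itself in 75 genes, and the 10 named ones stand here with the size of the difference on the log2(FPKM + 1) scale. The difference was 2.74 for CYP76G1, 2.57 for TPS03, 2.43 for AT1G25530, 2.23 for ARR16 and 2.2 for LBO1. It was -2.61 for AT5G44568, -1.63 for RLP39, -1.58 for GLR2.8, -1.47 for CCR4 and -1.39 for AT2G27660. With a pseudocount of 0.1 none of the 10 passed, with adjusted p between 0.0856 (AT5G44568) and 0.738 (CCR4).

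In 3 gene lists the median change had opposite signs in the sets, and the difference was not tested. Nitrogen metabolism and transport had a median of -0.075 in set 1 and 0.43 in set 2, the circadian clock 0.072 and -0.0094, and the vascular markers 0.045 and -0.28.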

How the results depend on the processing

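Depth is unknown from FPKM, and 1 library per day and set limits what single libraries can show. Beside 1529 changed genes (911 higher, 618 lower), a pseudocount of 0.1 gave 467 higher and 596 lower, so that falls outnumbered rises. Quantile normalization gave 2857 (1508 and 1349), rescaling nuclear genes to one sum 2397 (1144 lower), days 22 to 30 alone 3980 (2102 and 1878), and the fit without day 4 3677 (1943 and 1734). Leaving out 1 library gave 447 to 894 changed, 317 to 537 higher and 118 to 376 lower. Beside 75 genes for the difference between steps, these gave 1 with pseudocount 0.1, 46 with at least 5 FPKM in 2 libraries, 169 with quantile normalization, 233 with days 22 to 30, 244 without day 4, and 23 to 68 without 1 library of day 22, 24, 26 or 28. The fits without a library of day 22 or 24 were chosen after seeing the data. The cause of each shift was not tested, except that leave-outs and fewer days change the number of libraries.

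The labels do not say whether the set numbers pair the libraries across days, and pairing was not tested. The correlation over genes of set 1 minus set 2 was 0.65 between days 26 and 28, the highest of 91 pairs of days. The lowest of these pairs was -0.146 and the median 0.226, and 66 of them were over 0.1. Without the replicate block 1041 genes changed, 717 higher and 324 lower, and all 1041 were among the 1529. Of the 217 called genes named or listed, 74 and 150 kept their call without the day 28 library of set 1 and of set 2, 144 and 81 without the day 26 libraries, 133 without the block, 171 with pseudocount 0.1, and 195 or more under each other setting (212 tested with the stricter filter), and none reversed.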
